A study of Mus musculus with 8 samples.

Results

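Ggt5, Tmem176a, Tmem176b, Wfdc21 and Tarm1 are 5 protein-coding genes, of 43346 in the deposited count table, that were strongly higher in MC3T3 cells given medium conditioned by LLC1 cells and that belong to no standard bone gene programme. They were picked by name for the size of their rise between these same groups, so that rise is described here with no test and supports nothing. All 5 names were found in the table, and all 5 genes passed the low-count filter. MC3T3 is a line of mouse bone-forming precursor cells that mineralizes in culture, and LLC1 is a mouse Lewis lung carcinoma line. All samples were grown for 7 days with 10 mM beta-glycerophosphate and 100 µg/mL ascorbic acid, which drive mineralization. The LLC_CM group of 4 libraries received 25% LLC1 conditioned medium, collected after 48 hours without serum and filtered. The labels leave NCM unexplained, and its 4 libraries are read as the vehicle-treated ones because no other group remains. No allele or genotype is given beyond the cell line. Nor do the labels state that replicates came from separate cultures, and every p-value here therefore rests on a spread that could be technical only.

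The 8 poly(A)-selected libraries held 27264212 to 35573953 assigned reads, and 14991 genes passed the filter. Levels are given as CPM, counts scaled to normalized library totals. Of the genes tested, 18.8% were called higher and 18.1% lower in LLC_CM (edgeR's quasi-likelihood test, Benjamini-Hochberg adjusted p under 0.05). All 8 osteoblast markers examined were tested, and their summed level was 60308 to 74055 CPM in LLC_CM and 90296 to 116194 CPM in NCM. All 8 fell. Alpl, the alkaline phosphatase of bone, fell by 2.19 ± 0.11 on the log2 scale (SE, adjusted p = 7.2e-10), and Sp7, a lineage factor, fell by 1.20 ± 0.08 (adjusted p = 2.2e-08). In bulk RNA, a change in the share of cells of a type and a change in RNA per cell cannot be told apart.

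Each of the 5 genes is better known outside bone. Ggt5 encodes a membrane-bound gamma-glutamyl transferase that clips the gamma-glutamyl group from glutathione and from leukotriene C4, an inflammatory lipid, and leaves leukotriene D4. Tmem176a and Tmem176b encode related membrane proteins with the tetraspan layout of the Ms4a family, described in dendritic cells and macrophages. Wfdc21 encodes a small secreted protein with the disulfide core of whey acidic protein, a fold shared with several protease inhibitors. Tarm1 encodes an immunoglobulin-type receptor of myeloid cells that signals through the adaptor Fcer1g, whose tail carries an ITAM, a motif that recruits the kinase Syk.

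The 5 genes started from different levels and rose by different amounts. Fitted log2 fold changes, LLC_CM over NCM, were 7.10 for Wfdc21, 5.77 for Ggt5, 5.09 for Tarm1, 3.56 for Tmem176a and 2.92 for Tmem176b. The gene with the lowest CPM in NCM, Wfdc21, had the largest fold and the gene with the highest, Tmem176b, the smallest. Between these ends the order did not hold: Tarm1 started lower than Ggt5, at 0.669 against 1.48 CPM in NCM, and rose less. The NCM level is also the denominator of the fold, so nothing is read from this order. The places of the 5 genes in the order of log2 fold change over the 14991 genes were 14 for Wfdc21, 22 for Ggt5, 29 for Tarm1, 80 for Tmem176a and 124 for Tmem176b. A log2 fold change of 3 or more was fitted for 0.754% of tested genes, and all of the 5 except Tmem176b passed that size. In all 5 every LLC_CM library was above every NCM library, as in 18.1% of the genes tested. The choice of these genes fixes that direction, so nothing is read from it.

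**Figure D1:**
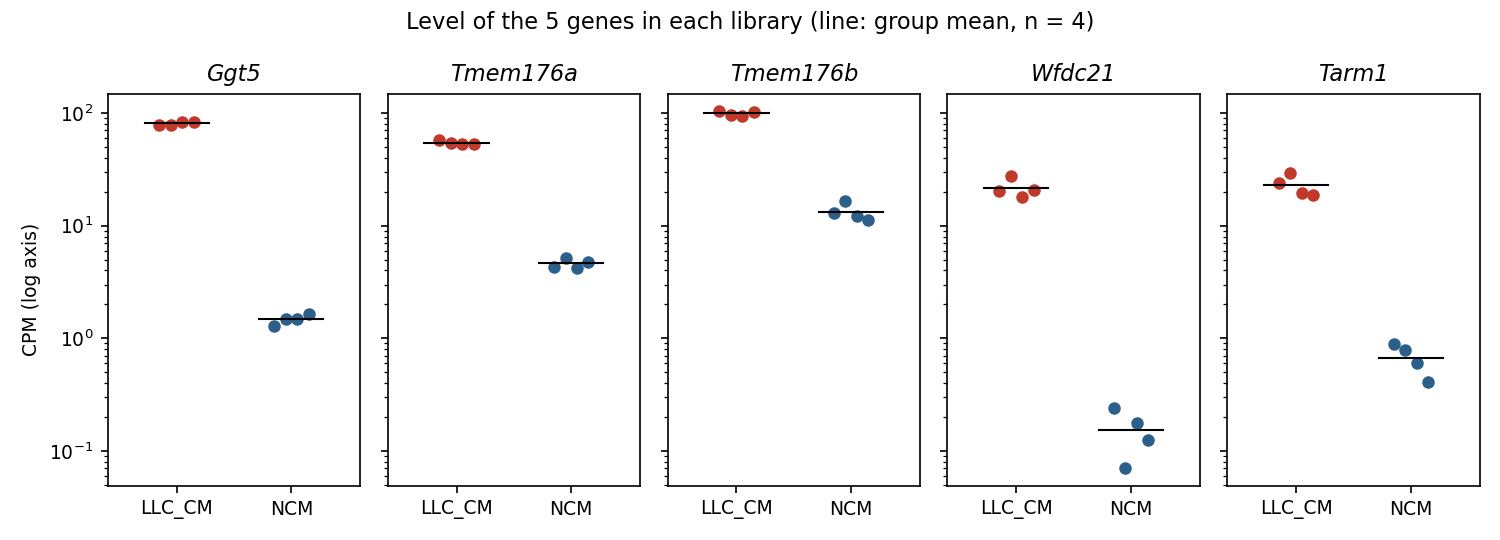
Level of each of the 5 genes in CPM (log axis) in the 4 LLC_CM libraries (left of each panel) and the 4 NCM libraries (right), with lines at the group means. In every panel the groups do not overlap, and the gap is widest for Wfdc21, at 21.6 CPM in LLC_CM and 0.153 CPM in NCM.

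**Figure D2:**
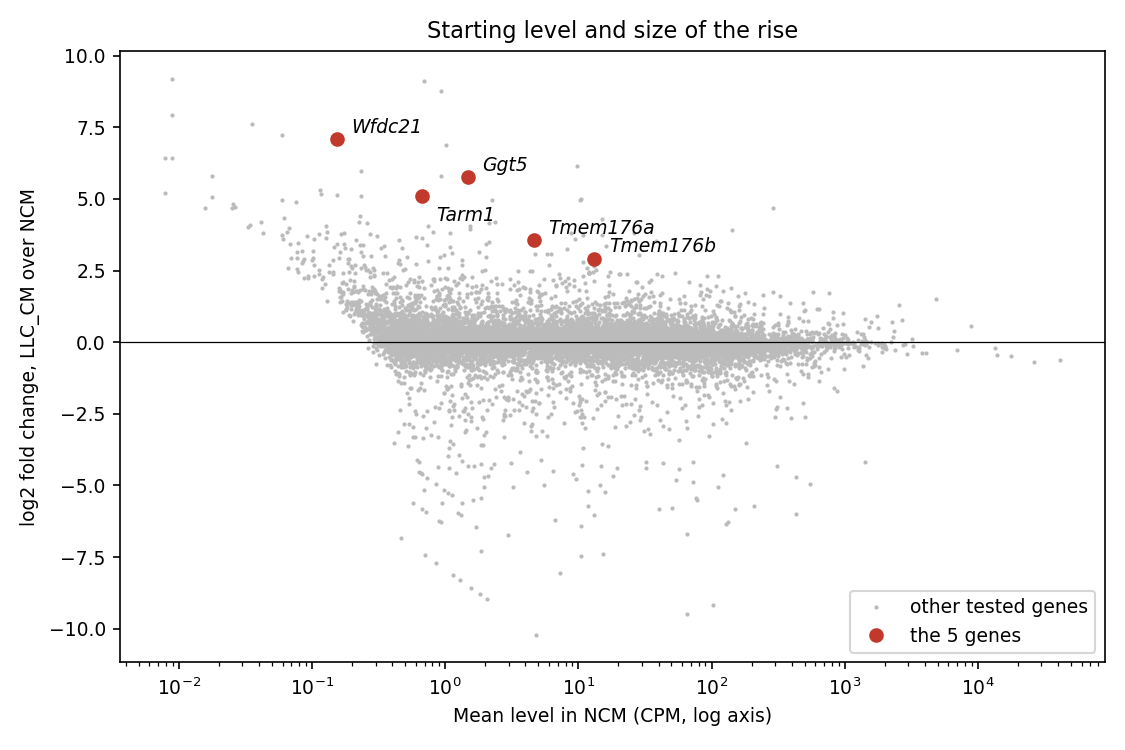
Mean CPM in NCM (log axis) against the fitted log2 fold change, LLC_CM over NCM, for 14984 tested genes, with the 5 genes in red and 7 genes at 0 in NCM not drawn. The 5 genes run from Wfdc21 at upper left to Tmem176b, with 13.2 CPM in NCM, at lower right.

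Ggt5 (ENSMUSG00000006344) lies on chromosome 10 from 75589340 to 75617200 in mm10, on the plus strand. It had 78.2, 78.4, 82.7 and 83.5 CPM in the LLC_CM libraries, against 1.30, 1.49, 1.48 and 1.64 CPM in the NCM libraries. The LLC_CM libraries lay close together and far above NCM. The mean was 80.7 ± 2.79 CPM in LLC_CM and 1.48 ± 0.14 CPM in NCM (SD, n = 4 each), a log2 fold change of 5.77 ± 0.09 (SE). Over the groups 10293 reads in LLC_CM stood against 174 in NCM, and the ratio of the depth-scaled sums was 54.6 (exact 95% counting interval 47.0 to 63.8). Such intervals cover counting error only. Of the 2464 other tested genes with as low a mean in NCM, 3 reached as high a mean in LLC_CM. The 5 genes were chosen for their rise, which makes such counts small, so nothing is read from them.

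Other gamma-glutamyl transferase genes were near the detection limit or changed little. Ggt1, the broadly known family member, ends 3139 bases before Ggt5 on the same chromosome and had 17 reads over LLC_CM and 10 over NCM, too few to be tested. Ggt6 had 3 reads in the whole of LLC_CM and 0 in NCM, and the detection limit is set at 3 reads per library. Ggt7, a family member of unsettled enzyme activity, had 2.37 ± 0.39 CPM in LLC_CM and 1.55 ± 0.31 CPM in NCM (SD, n = 4 each) and rose by 0.61 ± 0.20 (SE, adjusted p = 0.026); it was chosen after its values were seen. That call was lost without LLC_CM replicate 4 or without NCM replicate 1, 3 or 4, at adjusted p = 0.068 to 0.089 (0.015 to 0.089 over 16 settings). No transcript of another gene matched Ggt5, or any of the other 4 genes, at 95% identity over 100 bases.

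Of the enzymes that act on the products of the gamma-glutamyl transferases, dipeptidases rose and a cyclotransferase fell. Of 16 gamma-glutamyl cycle genes other than Ggt5, 13 were tested, 9 rose and 2 fell, with 36.9% of all tested genes called in either direction. The median log2 fold change was 0.31 over these 13 genes and 0.01 over all genes tested. Dpep1, a dipeptidase that cuts cysteinylglycine and turns leukotriene D4 into E4, had 94.4 ± 2.97 CPM in LLC_CM and 17.4 ± 3.46 CPM in NCM (SD, n = 4 each) and rose by 2.44 ± 0.11 (SE, adjusted p = 5.0e-10). Dpep2, a related dipeptidase, rose by 2.17 ± 0.15 (adjusted p = 2.6e-08). In the annotation 37.3% of the exonic bases of Dpep2 are shared with a second gene model of the same name, so the split of its reads is uncertain. Ggct, the cyclotransferase that acts on gamma-glutamyl amino acids, fell by 1.05 ± 0.16 to 2.37 ± 0.41 CPM in LLC_CM, against 4.88 ± 0.44 CPM in NCM (adjusted p = 7.8e-05). Chac1, which breaks glutathione down inside the cell, fell by 2.25 ± 0.25 to 0.841 ± 0.130 CPM in LLC_CM, against 4.01 ± 1.38 CPM in NCM (adjusted p = 3.8e-06). Chac2, of the same family, went the other way and was more abundant. It rose by 0.42 ± 0.12 to 7.45 ± 0.84 CPM in LLC_CM, against 5.57 ± 0.34 CPM in NCM (adjusted p = 0.012). The glutathione synthesis genes moved little: Gclc, a subunit of the first enzyme, rose by 0.28 ± 0.07 (adjusted p = 0.0040), while Gclm, its partner subunit, had -0.14 ± 0.06 and Gss, the last enzyme, 0.17 ± 0.09, and neither passed. Ggct, Chac2, Gclc, Gclm and Gss were chosen after their values were seen.

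Genes that supply leukotriene C4, the lipid substrate of Ggt5, were incomplete in both groups. Of 13 genes of leukotriene synthesis and reception 6 were tested, 2 rose and 1 fell, where 36.9% of all tested genes were called in either direction. Their median log2 fold change was 0.09, against 0.01 over all genes tested. Alox5ap, which presents arachidonic acid to 5-lipoxygenase, rose by 2.76 ± 0.28 to 3.04 ± 0.60 CPM in LLC_CM, against 0.445 ± 0.199 CPM in NCM (adjusted p = 1.4e-06). An antisense gene model covers 13.3% of its exonic bases, and the library kit does not mark strand. Mgst2, a microsomal glutathione transferase that can make leukotriene C4, rose by 2.00 ± 0.17 (adjusted p = 1.8e-07), and Mgst3, a relative, fell by 0.75 ± 0.11 (adjusted p = 4.8e-05). Alox5, the 5-lipoxygenase gene itself, had 0 reads over LLC_CM and 2 over NCM, and Ltc4s, leukotriene C4 synthase, had 10 and 9. A count of 0 allows up to 0.111 CPM in the shallowest LLC_CM library, at 3 reads. The leukotriene receptor genes Cysltr1, Cysltr2 and Ltb4r1 had no read in either group. Ggt5, Dpep1 and Dpep2 were higher in LLC_CM with 5-lipoxygenase RNA at or under the detection limit. Alox5, Ltc4s and the receptors were chosen after their values were seen.

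Within 100 kb of Ggt5 5 genes were tested, of which 1 rose and 4 did not pass, a share near the 18.8% called higher over all tested genes. Susd2, the one that rose, a membrane protein with a sushi domain and a surface marker of some stromal cells, begins 19418 bases past the end of Ggt5. It had 2.87 ± 0.20 CPM in LLC_CM and 0.355 ± 0.233 CPM in NCM (SD, n = 4 each) and rose by 2.99 ± 0.33 (SE, adjusted p = 3.6e-06). Cabin1, farther on the same side, had a log2 fold change of 0.12 ± 0.12, and Lrrc75b, Snrpd3 and Gucd1 on the other side had 0.19 ± 0.08, 0.13 ± 0.07 and 0.00 ± 0.09.

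Tmem176a (ENSMUSG00000023367) and Tmem176b (ENSMUSG00000029810) lie head to head on chromosome 6. Both were chosen for their rise, so nothing is read from the rise of both. In the table Tmem176b runs from 48833811 to 48841374 and Tmem176a from 48841483 to 48845364, and 108 bases separate their starts. The RefSeq promoter table (GRCm38.p6) holds windows of 300 bases, 250 before a start and 50 after it, and the windows at these starts share 208 bases. They are shown because, with these starts, the 108 bases between them lie upstream of both genes. That rests on the annotation used. RefSeq also places a start of Tmem176a at 48841656, and starts of Tmem176b at 48841137 and 48840988. In GENCODE M21 Tmem176a starts at 48840919 and Tmem176b at 48841496, so the 108 bases lie within both gene models. Each window is written 5′ to 3′ on the strand of its gene, and capitals mark the 108 bases.
Tmem176a, chr6:48841233-48841532, plus strand: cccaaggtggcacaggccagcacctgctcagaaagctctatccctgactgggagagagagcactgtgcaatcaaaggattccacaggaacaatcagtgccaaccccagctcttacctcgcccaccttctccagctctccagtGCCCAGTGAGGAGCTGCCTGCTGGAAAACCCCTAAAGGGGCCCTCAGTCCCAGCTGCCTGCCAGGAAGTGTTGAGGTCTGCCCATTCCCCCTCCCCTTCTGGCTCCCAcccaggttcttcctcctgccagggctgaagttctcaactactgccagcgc
Tmem176b, chr6:48841325-48841624, minus strand: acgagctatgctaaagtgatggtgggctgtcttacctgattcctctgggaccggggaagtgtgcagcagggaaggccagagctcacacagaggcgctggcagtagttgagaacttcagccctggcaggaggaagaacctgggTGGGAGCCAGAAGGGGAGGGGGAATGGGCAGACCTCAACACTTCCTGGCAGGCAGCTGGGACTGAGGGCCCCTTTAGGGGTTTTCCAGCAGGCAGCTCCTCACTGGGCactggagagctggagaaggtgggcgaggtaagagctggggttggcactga

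Tmem176a had 57.4, 54.6, 53.1 and 53.3 CPM in the LLC_CM libraries, against 4.33, 5.17, 4.20 and 4.79 CPM in the NCM libraries. Tmem176b had 103, 96.1, 94.6 and 103 CPM in the LLC_CM libraries, against 12.9, 16.4, 12.0 and 11.3 CPM in the NCM libraries. In NCM both genes had higher CPM than the other 3. Means were 54.6 ± 1.98 CPM in LLC_CM and 4.63 ± 0.44 CPM in NCM for Tmem176a, and 99.2 ± 4.47 CPM in LLC_CM and 13.2 ± 2.27 CPM in NCM for Tmem176b (SD, n = 4 each). The log2 fold changes were 3.56 ± 0.08 for Tmem176a and 2.92 ± 0.10 for Tmem176b (SE). The fold was larger for Tmem176a, at 11.8 against 7.54 for Tmem176b, and the difference in CPM was larger for Tmem176b, at 86.0 against 49.95 for Tmem176a. Of the 4133 other tested genes as low in NCM as Tmem176a, 6 reached as high a mean in LLC_CM. For Tmem176b it was 9 of 6186.

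The balance of the pair differed between the groups. Per kilobase of the table's gene length, 1119 bases for Tmem176a and 2049 for Tmem176b, the ratio of Tmem176b to Tmem176a was 0.983, 0.962, 0.973 and 1.05 in the LLC_CM libraries, against 1.63, 1.73, 1.56 and 1.28 in the NCM libraries. All 4 LLC_CM ratios were below all 4 NCM ratios, with means of 0.993 ± 0.041 in LLC_CM and 1.55 ± 0.19 in NCM (SD, n = 4 each). The size of the ratio rests on the lengths used. With the exonic bases of GENCODE M21, 3810 for Tmem176a and 2371 for Tmem176b, it averaged 2.92 ± 0.12 in LLC_CM and 4.57 ± 0.57 in NCM, and a change of lengths moves both groups by the same factor. The ratio comes from the comparison that chose the genes, so it has no test. In GENCODE M21, where both models reach farther than in the table, 81 exonic bases lie on both strands, 2.13% of Tmem176a and 3.42% of Tmem176b, and reads there cannot be assigned to a strand.

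**Figure D3:**
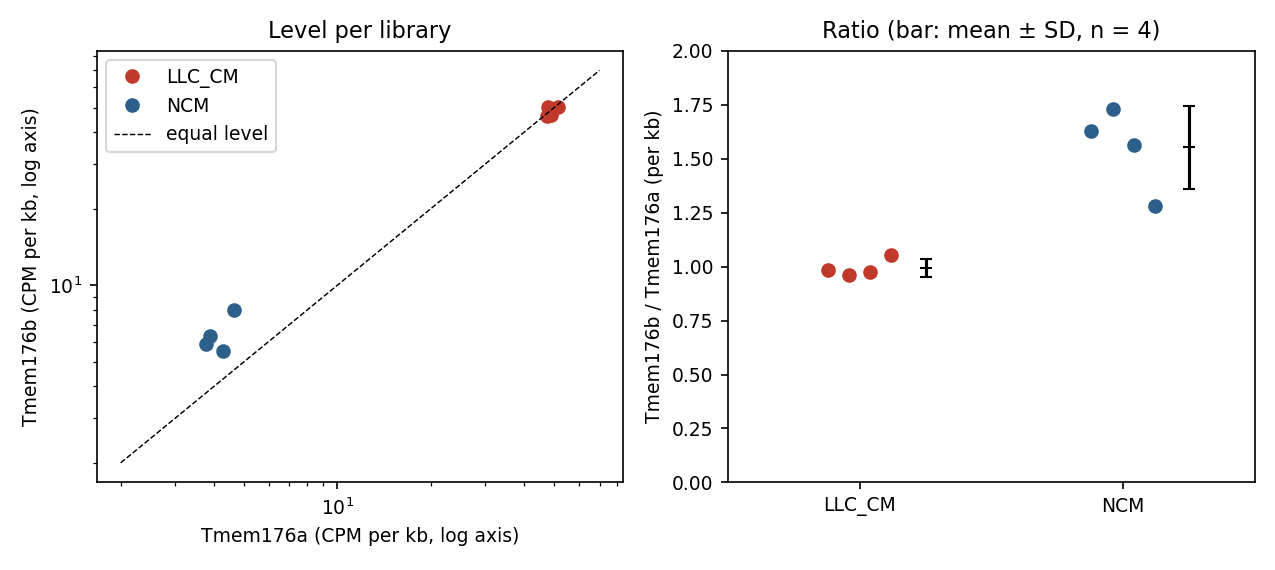
Left, CPM per kilobase of Tmem176b against Tmem176a in each library (log axes), with a dashed line at equal level. Right, their ratio in LLC_CM and NCM with mean and SD; with the lengths in the count table LLC_CM libraries lie between 0.962 and 1.05 and NCM libraries between 1.28 and 1.73, and other lengths would shift all libraries alike.

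The neighbourhood and the family of the Tmem176 pair had few reads. Within 100 kb of either gene, apart from the pair, no gene passed the low-count filter. Of the 8 Gimap genes, GTPases of lymphocytes whose cluster adjoins the pair, 2 were tested and none was called by edgeR, DESeq2 or limma-voom, with 0 at an unadjusted p under 0.05. Gimap9, the most abundant, had 4.63 ± 0.29 CPM in LLC_CM and 3.83 ± 0.76 CPM in NCM (SD, n = 4 each), and its log2 fold change was 0.27 ± 0.15 (SE, adjusted p = 0.19). Of 18 Ms4a family genes 16 had no read in any library and none could be tested. Ms4a4d had 18 reads over LLC_CM and 1 over NCM, and Ms4a15 had 1 and 0; both were named after their counts were seen.

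Promoter windows were in the RefSeq table for 3 of the 5 genes, 6 windows in all, and Ggt5 and Wfdc21 are named only. On both strands 7 motifs were searched: TTCNNNGAA (STAT), TGANTCA (AP-1), TTGCNNAA (C/EBP), GAGGAA (Ets, PU.1 type), GGGCGG (GC box), and the NF-kB and interferon response motifs. GAGGAA or its complement, held by 28.3% of all 32851 windows, was in the Tarm1 window and in 3 of the overlapping Tmem176 windows. Those 3 windows hold only 2 distinct copies between them, so they are not separate finds. The Tmem176a window printed above holds 1 copy, which lies in the shared bases, and the Tmem176b window holds that copy and another. The other 6 motifs, held by 3.44% to 35.7% of all windows, were in none of the 6, which says only that these letters are not in these windows. Tarm1 had a single window, shown because that gene was at under 1 CPM in NCM. Its start lies 159 bases from the start in the count table, and capitals mark the 2 copies of GAGGAA or its complement.
Tarm1, chr7:3502575-3502874, minus strand: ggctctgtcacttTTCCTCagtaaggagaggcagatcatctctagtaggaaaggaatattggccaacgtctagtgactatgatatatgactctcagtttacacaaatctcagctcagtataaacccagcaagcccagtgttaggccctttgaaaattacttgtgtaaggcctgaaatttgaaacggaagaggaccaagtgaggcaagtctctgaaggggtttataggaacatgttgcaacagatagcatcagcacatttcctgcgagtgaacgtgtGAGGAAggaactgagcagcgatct

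Wfdc21 (ENSMUSG00000051748) lies on chromosome 11 from 83746940 to 83752642, on the plus strand, and was close to undetected in NCM. It had 20.3, 27.4, 17.8 and 20.8 CPM in the LLC_CM libraries, against 0.239, 0.0709, 0.177 and 0.126 CPM in the NCM libraries. The NCM values rest on 7, 2, 5 and 4 reads, and replicate 2 was under the limit of 3 reads. Means were 21.6 ± 4.10 CPM in LLC_CM and 0.153 ± 0.072 CPM in NCM (SD, n = 4 each), a log2 fold change of 7.10 ± 0.24 (SE). Over the groups 2703 reads in LLC_CM stood against 18 in NCM, and the ratio of the depth-scaled sums was 139 (exact 95% counting interval 87.6 to 234). Of the 72 other tested genes with as low a mean in NCM, none reached as high a mean in LLC_CM. Wfdc21 was chosen for its rise, so nothing is read from that count.

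Among relatives of Wfdc21 with the same protein domain, the secreted inhibitor Slpi rose. Of 22 genes with a whey acidic protein domain other than Wfdc21, 13 had no read in any library and 4 were tested, of which 2 rose and 1 fell, where 36.9% of all tested genes were called in either direction. Slpi, an inhibitor of neutrophil elastase made at mucosal surfaces, had 146 ± 14.2 CPM in LLC_CM and 10.9 ± 2.11 CPM in NCM (SD, n = 4 each) and rose by 3.75 ± 0.12 (SE, adjusted p = 4.0e-11). Wfdc1 fell by 1.97 ± 0.19 to 0.824 ± 0.113 CPM in LLC_CM, against 3.23 ± 0.44 CPM in NCM (adjusted p = 1.1e-06). Wfikkn2, a secreted binder of myostatin, rose by 1.79 ± 0.48 (adjusted p = 0.0080) to 0.742 ± 0.431 CPM in LLC_CM, against 0.213 ± 0.106 CPM in NCM; it was chosen after its values were seen. Wfdc12 had 75 reads over LLC_CM and 3 over NCM and did not pass the filter.

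Little could be measured beside Wfdc21. Its relatives Wfdc18 and Wfdc17, 35591 and 40671 bases away, had no read in any library. Heatr6, whose row begins 1053 bases past the end of Wfdc21, was the single tested gene within 100 kb. It had 43.5 ± 5.01 CPM in LLC_CM and 40.5 ± 0.73 CPM in NCM (SD, n = 4 each), a log2 fold change of 0.11 ± 0.08 (SE, adjusted p = 0.32), and it passed at adjusted p = 0.047 without LLC_CM replicate 2 (0.047 to 0.73 over 16 settings).

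Tarm1 (ENSMUSG00000053338) lies on chromosome 7 from 3489079 to 3502465, on the minus strand. It had 23.6, 29.3, 19.4 and 18.9 CPM in the LLC_CM libraries, against 0.887, 0.779, 0.600 and 0.410 CPM in the NCM libraries. Every NCM library held some reads, 13 to 26 of them, and every LLC_CM library held 631 to 792. Means were 22.8 ± 4.84 CPM in LLC_CM and 0.669 ± 0.209 CPM in NCM (SD, n = 4 each), a log2 fold change of 5.09 ± 0.21 (SE). Over the groups 2849 reads in LLC_CM stood against 78 in NCM, and the ratio of the depth-scaled sums was 33.7 (exact 95% counting interval 26.9 to 42.8). Of the 1321 other tested genes with as low a mean in NCM, none reached as high a mean in LLC_CM. Here too the choice of the gene for its rise leaves nothing to read from that count. No gene within 100 kb of Tarm1 passed the filter.

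Genes of the ITAM pathway through which Tarm1 signals moved in both directions. Of 15 ITAM adaptors and downstream signalling genes 6 were tested, 2 rose and 3 fell, where 18.8% of all tested genes rose and 18.1% fell. Fcer1g, the adaptor of Tarm1, rose by 1.54 ± 0.28 to 1.25 ± 0.17 CPM in LLC_CM, against 0.427 ± 0.132 CPM in NCM (adjusted p = 0.00043). Syk, the kinase that binds phosphorylated ITAMs, rose by 1.02 ± 0.14 to 17.9 ± 2.64 CPM in LLC_CM, against 8.82 ± 1.54 CPM in NCM (adjusted p = 2.6e-05). Both were chosen after their values were seen. Lyn, a Src-family kinase that phosphorylates ITAMs, fell by 0.76 ± 0.06 (adjusted p = 1.7e-07), Plcg2, a phospholipase downstream of Syk, fell by 1.95 ± 0.18 (adjusted p = 5.7e-07), and Zap70, a relative of Syk known from T cells, fell by 3.55 ± 0.43 to 0.100 ± 0.084 CPM in LLC_CM, against 1.15 ± 0.27 CPM in NCM (adjusted p = 1.0e-05). Zap70 had 12 reads over LLC_CM, and replicates 1 and 4 were under the limit of 3 reads, so the size of its fall is uncertain. Tyrobp and Hcst, the other adaptors listed, had no read in any library.

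Of the related immunoglobulin-type receptors, Trem2 alone passed the filter. Of 19 leukocyte receptor cluster and Trem genes 14 were found in the table, 11 had no read in any library and 1 was tested. Trem2, a lipid-binding receptor of macrophages and osteoclasts that signals through Tyrobp, had 3.52 ± 0.62 CPM in LLC_CM and 0.345 ± 0.140 CPM in NCM (SD, n = 4 each) and rose by 3.35 ± 0.27 (SE, adjusted p = 1.2e-07). Oscar, the collagen receptor of osteoclasts, lies 107347 bases from Tarm1 and had 23 reads over LLC_CM and 14 over NCM, too few to be tested; it was chosen after its counts were seen.

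**Figure D4:**
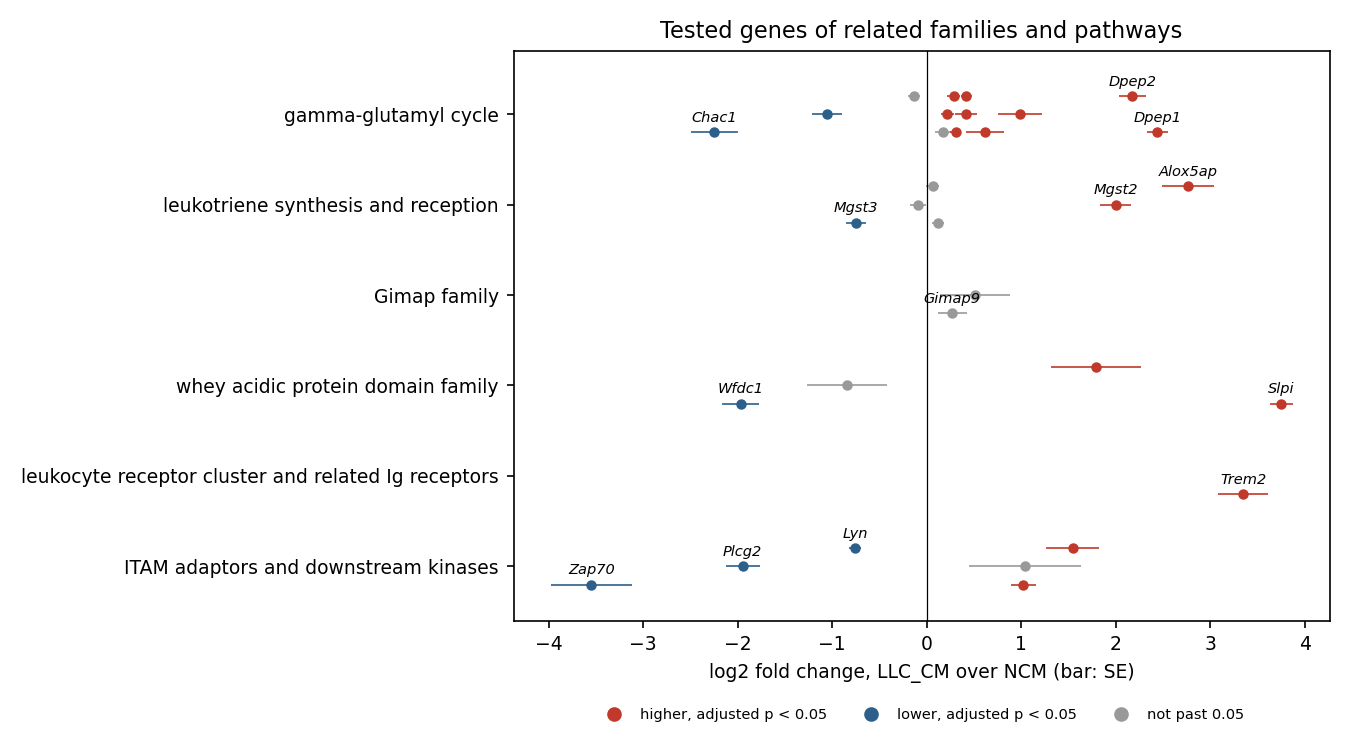
Fitted log2 fold change, LLC_CM over NCM, with its SE for each tested gene of the pathways and families related to the 5 genes, in red where called higher, blue where called lower and grey where not past 0.05. Dpep1, Dpep2, Alox5ap, Mgst2, Slpi and Trem2 lie at 2.00 or more, while Zap70, Chac1, Wfdc1 and Plcg2 lie at -1.95 or less. The place of Zap70 is uncertain, as it had 12 reads over LLC_CM.

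Tarm1 and the Tmem176 pair are known from myeloid cells, so markers of those cells were examined in the same libraries. The 12 macrophage markers summed to 18.7 to 32.7 CPM in LLC_CM and 11.7 to 17.5 CPM in NCM, most of it from Lyz2, a lysozyme, which rose by 0.81 ± 0.21 (adjusted p = 0.0089). Of these 12, 4 were tested, Lyz2 and Fcer1g rose, and neither Cd68 nor Csf1r passed, at 0.12 ± 0.22 and -0.48 ± 0.28. The defining genes were at or near 0: Itgam and Tyrobp had no read in any library, and Ptprc, the pan-leukocyte gene CD45, had 0 reads over LLC_CM. The 9 dendritic cell markers summed to 6.25 to 7.34 CPM in LLC_CM and 8.18 to 10.1 CPM in NCM, with Flt3, Cd209a, Clec9a, Xcr1 and Siglech at 0 reads. Zbtb46, a dendritic and endothelial cell factor, fell by 0.52 ± 0.11 (adjusted p = 0.0018) and Cd74, the MHC class II chaperone, rose by 1.33 ± 0.35 (adjusted p = 0.0073) to 0.652 CPM.

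Neutrophil and epithelial markers were scarcer still. The 10 neutrophil markers summed to 0.924 to 1.63 CPM in LLC_CM and 0.315 to 0.530 CPM in NCM, with S100a9, Ly6g, Ngp, Retnlg and Cxcr2 at 0 reads. Camp, the cathelicidin gene, was the single one tested and was called higher (adjusted p = 6.7e-06), with 0.782 ± 0.175 CPM in LLC_CM. In NCM it had 8 reads over the 4 libraries, under the limit of 3 reads in each, so its fold is not given. Among the untested ones, Mpo went the other way, with 5 reads over LLC_CM and 25 over NCM, and S100a8 had 42 and 13. The 9 epithelial markers summed to 1.55 to 2.49 CPM in LLC_CM and 0.494 to 0.921 CPM in NCM, with Epcam, Krt8, Krt18 and Sftpc at 0 reads. Muc1, an epithelial mucin, was the single one tested and rose by 1.93 ± 0.36 to 1.46 ± 0.46 CPM in LLC_CM, against 0.383 ± 0.193 CPM in NCM (adjusted p = 0.00050). The part of any of these cell types in the rise of the 5 genes was not tested.

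Compared per kilobase of the lengths in the count table, Wfdc21 and the Tmem176 pair had the highest levels in LLC_CM. Wfdc21 averaged 49.7 ± 9.44, Tmem176a 48.8 ± 1.77, Tmem176b 48.4 ± 2.18, Tarm1 26.3 ± 5.58 and Ggt5 17.0 ± 0.59 CPM per kilobase (SD, n = 4). The first 3 did not differ beyond their spread. Tarm1 lay below them and Ggt5 below Tarm1, in each case with no overlap of libraries. In NCM the order was Tmem176b at 6.42 ± 1.11, Tmem176a at 4.13 ± 0.40, Tarm1 at 0.772 ± 0.241, Wfdc21 at 0.353 ± 0.165 and Ggt5 at 0.312 ± 0.030 CPM per kilobase (SD, n = 4). The libraries of Wfdc21 overlapped those of Tarm1 and those of Ggt5 there, and the remaining neighbours did not overlap. The order rests on the lengths. With the exonic bases of GENCODE M21, LLC_CM means were 49.7 ± 9.44 for Wfdc21, 41.8 ± 1.88 for Tmem176b, 14.3 ± 0.52 for Tmem176a, 13.6 ± 0.47 for Ggt5 and 11.0 ± 2.34 for Tarm1 (SD, n = 4). Tmem176a then lay below Tmem176b with no overlap, the libraries of Tmem176a, Ggt5 and Tarm1 overlapped, and Ggt5 averaged above Tarm1. In NCM the M21 lengths gave 5.55 ± 0.96 for Tmem176b and 1.21 ± 0.12 for Tmem176a (SD, n = 4). Wfdc21, at 0.353 ± 0.165, then averaged above Tarm1, at 0.324 ± 0.101, and Ggt5 had 0.249 ± 0.024. The NCM libraries of Wfdc21, Tarm1 and Ggt5 overlapped with those lengths. With the lengths in the count table, the median over all tested genes was 6.21 CPM per kilobase in either group. All 5 genes averaged above it in LLC_CM. In NCM only Tmem176b averaged above it, and its libraries lay on both sides, at 5.50 to 8.00 CPM per kilobase.

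In LLC_CM the libraries were close for Ggt5 and the Tmem176 pair and farther apart for Wfdc21 and Tarm1. There the coefficient of variation was 3.46% for Ggt5, 3.63% for Tmem176a and 4.50% for Tmem176b, against 19.0% for Wfdc21 and 21.2% for Tarm1. The 200 tested genes nearest in level had medians of 5.72% to 9.16%, so Wfdc21 and Tarm1 varied more than 192 and 191 of their 200, and Ggt5 and Tmem176a more than 33 and 26 of theirs. In NCM the coefficients were 9.53% for Ggt5, 9.60% for Tmem176a, 17.2% for Tmem176b, 46.8% for Wfdc21 and 31.3% for Tarm1. Of the 200 genes nearest in level there, Tmem176b varied more than 188, Tarm1 more than 129, Wfdc21 more than 80, Tmem176a more than 54 and Ggt5 more than 18.

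A single library carried the upper end for Wfdc21 and Tarm1. LLC_CM replicate 2 stood at 127% of the group mean for Wfdc21 and 129% for Tarm1, and at 96.9% to 100% for the other 3 genes. Of 92 tested genes with a log2 fold change of 3 or more and at least 1 CPM in LLC_CM, 40 were highest in LLC_CM replicate 2, 25 in replicate 1, 24 in replicate 4 and 3 in replicate 3. Without LLC_CM replicate 2 the log2 fold changes were 6.96 for Wfdc21 and 4.95 for Tarm1.

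**Figure D5:**
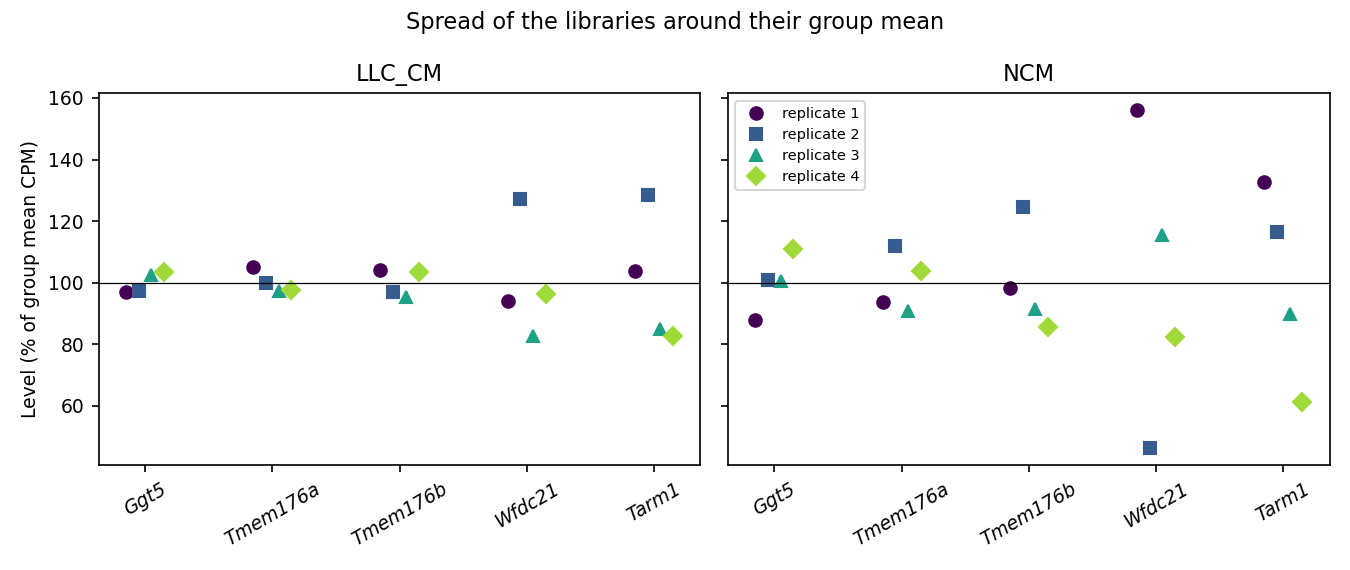
CPM of each library as a percentage of its group mean, for LLC_CM (left) and NCM (right), with symbols for the replicates. In LLC_CM, replicate 2 stands at 127% and 129% for Wfdc21 and Tarm1, while Ggt5, Tmem176a and Tmem176b lie between 95.4% and 105%.

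Profiles over the 8 libraries were compared by the root mean square difference of log2 CPM after centring each gene. A prior count of 2 was added before the log, which shrinks differences of genes with few reads. Centring keeps the difference between the groups, so the distance takes in the size of the rise as well as the spread of replicates. Ggt5, Wfdc21, Tarm1 and the Tmem176 pair were chosen for their rise. Nearness to them is therefore not read as a profile shared beyond a similar rise on this scale. The nearest to Wfdc21 was Serpina3m, a secreted serine protease inhibitor, at 0.098, and the next were Srgn, the serglycin proteoglycan, at 0.48 and Saa3, a serum amyloid, at 0.49. Serpina3m had 119 ± 17.7 CPM in LLC_CM and 1.01 ± 0.31 CPM in NCM (SD, n = 4 each); it belongs to a cluster of similar genes between which reads may be split. Nearest to Ggt5 were Lrg1, a secreted leucine-rich glycoprotein, at 0.28, complement C3 at 0.29 and Srgn at 0.32. Nearest to Tarm1 were Gm20547 and Cfb, complement factor B, at 0.29 and 0.30, whose gene models share 79.5% of the exonic bases of Cfb, and Ppp1r14c, a phosphatase inhibitor, at 0.33. Lrg1 and Saa3 had 1 read each over NCM, Srgn had 7 and Ppp1r14c had 0, against 394, 938, 1211 and 263 over LLC_CM. Their nearness therefore rests on that prior count.

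The Tmem176 genes were near other genes of mid-sized rise. Nearest to Tmem176a were Clu, the secreted chaperone clusterin, at 0.16, Olfml2b, a secreted matrix protein, at 0.17 and Klf15, a zinc finger factor, at 0.17. Nearest to Tmem176b were Adhfe1, a mitochondrial dehydrogenase, at 0.12, Angpt4, an angiopoietin, at 0.13 and Rarres2, which encodes the chemoattractant chemerin, at 0.19. Rarres2 lies 261140 bases from Tmem176b on chromosome 6 and had 74.9 ± 4.35 CPM in LLC_CM and 10.8 ± 1.40 CPM in NCM (SD, n = 4 each); 33.6% of its exonic bases overlap Lrrc61 on the other strand. The Tmem176 genes were 0.33 from each other, with 19 genes nearer to Tmem176a and 39 nearer to Tmem176b among 13221 compared. That distance includes the difference between their log2 fold changes, 3.56 for Tmem176a and 2.92 for Tmem176b.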

How the data were processed

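RNA-seq of 8 libraries was used. The authors deposited raw read counts per gene, as whole numbers, and the submitters' processing notes name CASAVA, featureCounts, STAR and mm10, with versions and annotation not given in the sources used here. Per the labels' protocols the TruSeq v2 kit was used with 200 ng of RNA and 12 PCR cycles, and that kit does not mark strand. Groups and replicate numbers came from the titles. The members and gene lists were chosen with earlier results of these data known. The fit was edgeR 4.0.16 (limma 3.58.1, R 4.3.3) with filterByExpr, TMM factors and a robust quasi-likelihood F test, adjusted over 14991 genes at 0.05; SE was taken as |log2 fold change| over the root of F. The deposited gene length, in bases, gave CPM per kilobase. Genes were named by membership, by the 3 nearest profiles of at least 1 CPM (prior count 2), by up to 3 called genes per list, and by lying within 100 kb; other genes named, including Cd74, Cd68, Csf1r and those with few or no reads, were chosen after their values were seen. Counting intervals are exact binomial at 95%. Exon overlaps came from GENCODE M21 and transcript matches from blastn 2.17.0. The closest 2 libraries of a group differed by a chi-square of 7.07 per degree of freedom, more than counting error, so all were counted; repeat preparations of one RNA cannot be told from this. On counts simulated for the 14991 genes of LLC_CM against NCM with 200 changed, 64% of 1.5-fold, 92% of 2-fold, 98% of 4-fold and 100% of 8-fold changes were recovered and 8 unchanged genes were called. Alternatives were other factors, filters and thresholds, DESeq2 1.42.0, limma-voom, a replicate block and leaving out each library. The exonic lengths, and these settings on genes named after their values were seen, were added after seeing the data.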

Additional observations from a re-analysis of the deposited data

Results flagged for a closer look

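Among 96 groups of 4 libraries examined for a library far from the others, 6 were flagged, and chance flags about 1 in 20. None of the 5 genes was among them. Rarres2 stood at 81.5 CPM in LLC_CM replicate 2, with the other LLC_CM libraries at 72.7 to 72.8 CPM. Alpl stood at 12.5 CPM in LLC_CM replicate 2, with the others at 14.1 to 14.3 CPM. Mgst2 stood at 1.45 CPM in NCM replicate 2, with the others at 1.09 to 1.14 CPM. Mgst3 stood at 24.0 CPM in NCM replicate 3, with the others at 18.3 to 18.9 CPM. Lrg1 in NCM replicate 3 and Saa3 in NCM replicate 2 stood apart by a single read each, at 0.0353 and 0.0354 CPM, with 0 in the other NCM libraries.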

How the results depend on the processing

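Over 16 other settings the log2 fold changes ran from 6.87 to 7.38 for Wfdc21, 5.70 to 5.81 for Ggt5, 4.89 to 5.25 for Tarm1, 3.51 to 3.61 for Tmem176a and 2.84 to 3.03 for Tmem176b, with both ends set by leaving out an NCM library. Without the low-count filter the whey acidic protein list gave 4 higher and 2 lower, the leukocyte receptor list 2 higher and the neutrophil list 2 higher and 1 lower, since more genes were tested. With at least 1 CPM in 4 libraries the whey acidic protein list gave 1 higher, and the neutrophil and dendritic lists 0. Heatr6 passed without LLC_CM replicate 2 (log2 fold change 0.18, adjusted p = 0.047; range over its 16 settings 0.047 to 0.73). Ggt7 lost its call without LLC_CM replicate 4 or NCM replicate 1, 3 or 4, at log2 fold changes of 0.50 to 0.57. Zap70, Camp, Wfikkn2 and Cd74 were not tested with at least 1 CPM in 4 libraries. Levels per kilobase, and the size of the Tmem176b to Tmem176a ratio, rest on the gene lengths, an alternative chosen after seeing the data; M21 exonic bases are 3.40 times the length in the count table for Tmem176a and 2.38 times for Tarm1. The deviations of same-numbered libraries from their group means had correlations across genes of 0.068, -0.044 and -0.027 for replicates 1, 2 and 4. For replicate 3 the correlation was 0.20, so those libraries deviated together to a small degree. With the replicate number as a block, 2810 genes were called higher and 2663 lower, against 2814 and 2717 without the block. At this depth genes under 3 reads per library, 0.0840 to 0.111 CPM, could not be told from 0.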
